A study of Mus musculus with 28 samples.

Results

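Metallothioneins, ferritin and genes of iron handling were followed in DC2 cells, immortalized mouse cells of the distal caput epididymidis, a stretch of the duct in which sperm mature. The 8 genes were taken by symbol from the 13128 genes with a symbol in the deposited expression table, and all 8 had a row there. They were the metallothionein genes Mt1 and Mt2, the ferritin subunit genes Fth1 and Ftl1, the siderophore-binding lipocalin gene Lcn2, the metalloreductase gene Steap4, the transferrin receptor gene Tfrc and the metal importer gene Slc39a14. Cells were given 500 ng/ml of corticosterone, the glucocorticoid that mice secrete, dissolved in ethanol, or 0.1% ethanol alone as vehicle, until day 3, when the medium was replaced. It was replaced again on day 6. There were 7 groups of 4 libraries, 28 in all: vehicle at day 3, 6 and 9, corticosterone at day 3, 6 and 9, and untreated cells at day 0, which had received neither ethanol nor hormone and carry the vehicle label. Treatment ended on day 3, so day 6 stands for 3 days and day 9 for 6 days of recovery. All groups used the same line, so the comparisons describe 1 cell line and not the tissue. Whether the replicates were separate cultures is not in the labels, so the p-values measure only the spread between these libraries, which may be technical.

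Metallothioneins are small cysteine-rich proteins that bind zinc and copper. Their genes respond to metals through the transcription factor MTF1, which binds metal response elements, and they are textbook glucocorticoid-inducible genes. Ferritin stores iron in a shell built of heavy subunits (Fth1), which oxidize iron, and light subunits (Ftl1), which help it to mineralize. Cells match storage to uptake through iron regulatory proteins. When iron is scarce these bind hairpins called iron-responsive elements, which blocks translation of ferritin mRNA from its 5′ UTR and protects the mRNA of the transferrin receptor through its 3′ UTR. Control of ferritin translation is therefore not visible in mRNA levels, whereas control of Tfrc stability is.

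Sequences with letter matches to these elements are shown. The 2 metallothionein genes share 1 kind of promoter core, and the ferritin and transferrin receptor mRNAs share 1 kind of hairpin. The promoter of Mt1 is at chr8:94178839-94179088 and that of Mt2 at chr8:94172368-94172617, both on the plus strand (RefSeq, GRCm38.p6), each holding the 250 bases before the annotated start. Capitals mark the metal response element core, TGCACNC or TGCGCNC, on either strand:
Mt1 promoter: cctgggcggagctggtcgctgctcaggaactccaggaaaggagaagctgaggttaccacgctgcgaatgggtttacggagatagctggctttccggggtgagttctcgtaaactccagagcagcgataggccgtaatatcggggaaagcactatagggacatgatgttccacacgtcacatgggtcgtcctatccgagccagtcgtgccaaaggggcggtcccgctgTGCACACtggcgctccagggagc
Mt2 promoter: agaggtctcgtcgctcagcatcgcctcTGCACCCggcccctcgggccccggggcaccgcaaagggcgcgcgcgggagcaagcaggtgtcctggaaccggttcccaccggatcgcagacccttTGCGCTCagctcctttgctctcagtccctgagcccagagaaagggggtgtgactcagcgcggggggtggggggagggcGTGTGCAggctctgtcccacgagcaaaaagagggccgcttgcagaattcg
Counted to 50 bases past the start, in windows of 300 bases, Mt1 held 3 such cores and Mt2 held 4. Of these, 1 in Mt1 and 3 in Mt2 lay before the RefSeq start, in the stretch shown. GENCODE M21 places the starts elsewhere, at 94179082 for Mt1 and 94172664 for Mt2. The counts before the start depend on the start chosen, so they do not show that Mt1 has fewer upstream elements than Mt2. Of 32851 mouse promoters of that length, 25.7% held at least 1, 1.97% at least 3 and 0.517% at least 4. Among the other members with a promoter entry, 1 of the windows of Tfrc held 2 cores, and Fth1, Ftl1, Lcn2 and Steap4 held 0. The core ACANNNTGT of the glucocorticoid response element was found once in the windows of Mt1 and of Lcn2 (6.85% of promoters held it). The iron-responsive hairpins come from GENCODE M21 transcripts, with the loop motif CAGTGN in capitals:
Fth1 5′ UTR: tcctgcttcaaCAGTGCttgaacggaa
Ftl1 5′ UTR: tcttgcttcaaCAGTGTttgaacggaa
Tfrc 3′ UTR hairpin 1: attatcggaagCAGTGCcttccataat
Tfrc 3′ UTR hairpin 2: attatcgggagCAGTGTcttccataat
Tfrc 3′ UTR hairpin 3: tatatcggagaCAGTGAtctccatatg
Tfrc 3′ UTR hairpin 4: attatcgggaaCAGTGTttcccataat
In each of them the 5 bases on either side of the loop pair fully, counting G-U wobble pairs, of which Tfrc hairpin 2 holds 1 and the others 0. A loop with at least 4 of 5 pairs was found in 0.806% of 21082 genes with a 5′ UTR and in 4.06% of 21101 genes with a 3′ UTR, and in 0 of the UTRs of the other 5 members. A match is a description of these letters and does not show that a factor binds.

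By GENCODE M21 on GRCm38, Mt1 (chr8:94179082-94180327) and Mt2 (chr8:94172664-94173568) are neighbours with 5513 bases between them. Fth1 is at chr19:9980598-9985098, Ftl1 at chr7:45457944-45459884, Lcn2 at chr2:32384633-32388252, Steap4 at chr5:7960457-7982213, Tfrc at chr16:32608920-32632794 and Slc39a14 at chr14:70303469-70351425. The table gives 1 value per gene, and how transcripts were combined is not stated in the labels. Reads from Mt1 and Mt2, which are close paralogs, and from Ftl1 and its near-identical copy Ftl1-ps1 may not be fully separated.

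Values are the authors' log2 CPM (reads per gene relative to the size of the library, on a log2 scale), whose low end depends on a prior count that is not given. Of the epithelial markers 6 of 7 were in the table, and their summed level was 53.2 to 79.9 CPM per library. By group, 3 to 5 of the 6 had a mean above 1 log2 CPM. Krt8 and Epcam were low, with group means of 0.17 to 2.31 and -1.42 to 1.47 log2 CPM. However, 9 of 10 genes of epididymal principal cells, Crisp1, Lcn5 and Adam7 among them, were not in the table. Markers of basal cells, clear cells, neutrophils and red blood cells were not in the table, which includes all 6 markers of neutrophils, a known source of Lcn2. Of the 28 libraries, 2 stood apart. Corticosterone day 3 replicate 4 had the largest deviation from its group mean over all genes (root mean square 0.39, against 0.187 to 0.275 in the other libraries), with short transcripts high and cytosolic ribosomal protein genes 0.51 above the group mean. Corticosterone day 6 replicate 6 deviated no more than others over all genes (0.227), but was the lowest of its group in all members except Steap4. The share of CPM from mitochondrial genes was 3.22 to 3.35% at day 0. It was 5.19 to 5.46, 5.40 to 5.81 and 5.64 to 6.09% in vehicle at days 3, 6 and 9, and 6.59 to 7.43, 8.16 to 9.15 and 6.28 to 6.99% with corticosterone, so the groups were apart on each day. The part of this share in the results was not tested.

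At the end of treatment, Lcn2, Slc39a14, Fth1, Mt2, Mt1 and Tfrc were higher with corticosterone, Steap4 was lower, and Ftl1 did not pass the test. At day 3, 6 of 8 members rose and 1 fell at adjusted p under 0.05, where 49% of all 13128 genes were called in either direction, 23.3% higher and 25.6% lower. At day 6, 4 rose and 2 fell (47.2% of all genes called, 22.9% higher and 24.3% lower), and at day 9, 2 rose and 4 fell (28.5% called, 14.1% higher and 14.4% lower). The median log2 fold change of the 8 was 0.80, 0.26 and -0.32 at the 3 days, and that of all genes was -0.01, 0 and 0. The treated and vehicle ranges did not overlap for 7, 5 and 7 of the 8 members at days 3, 6 and 9. The share of all genes with ranges apart was not counted, so these counts cannot be called unusual. Over the 7 groups, group means spanned 8.28 log2 units for Lcn2 and 6.59 for Steap4, 1.98 for Fth1, 1.86 for Slc39a14, 1.30 to 1.49 for the metallothioneins and Tfrc, and 0.48 for Ftl1.

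**Figure D1:**
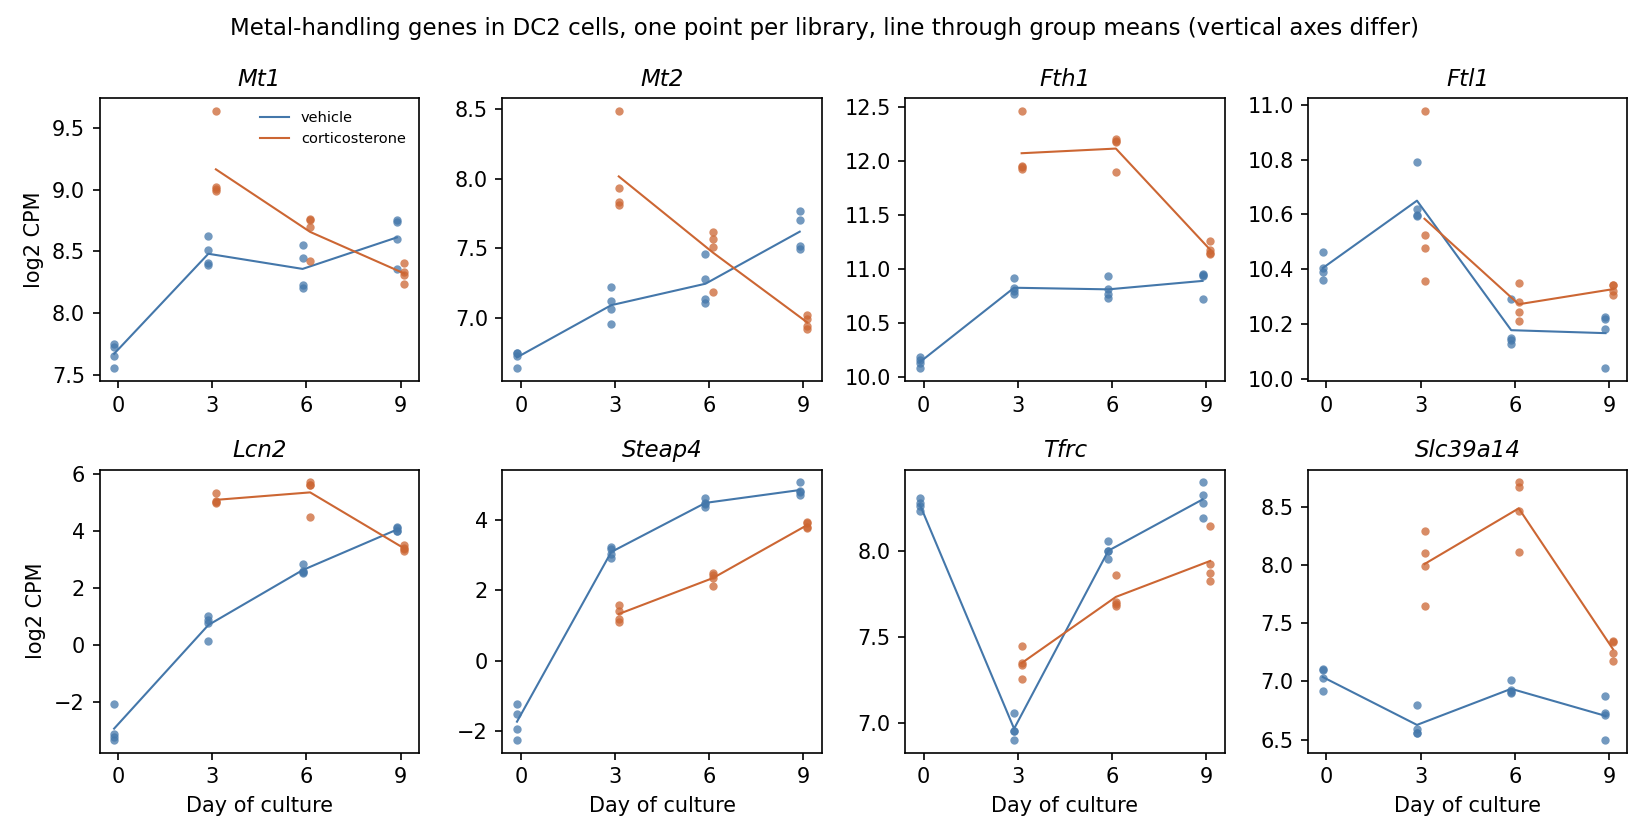
Level of each of the 8 genes (log2 CPM) by day of culture, with 1 point per library, blue for vehicle and untreated day 0 cells and orange for corticosterone, and a line through the group means. Fth1 and Slc39a14 lie above vehicle on all 3 days and Steap4 below it, whereas the lines of Mt1, Mt2, Ftl1, Lcn2 and Tfrc cross.

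**Figure D2:**
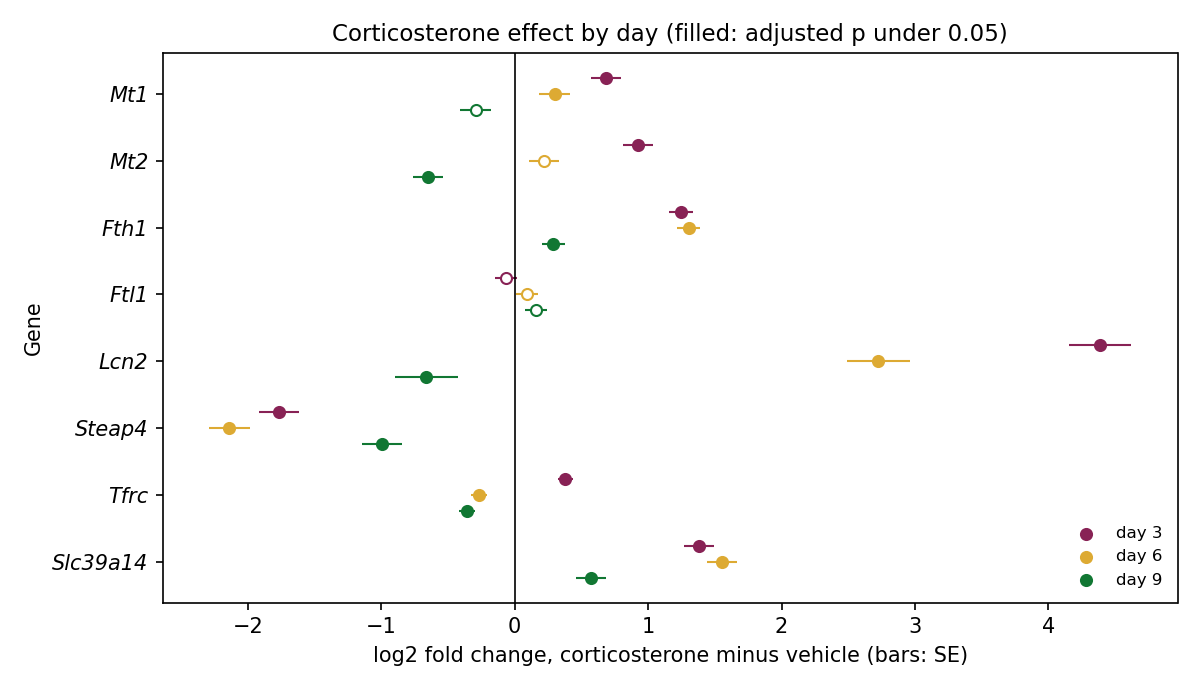
Log2 fold change of corticosterone against vehicle for the 8 genes at days 3, 6 and 9, with SE (n = 4 libraries per group). Filled points passed adjusted p under 0.05. Ftl1 is open on all 3 days, and Lcn2 moves from 4.39 at day 3 to -0.66 at day 9.

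The metallothionein genes were high at the end of treatment and at or below vehicle 6 days later. Mt1 stood at 9.02, 9.64, 8.99 and 9.01 log2 CPM in the treated libraries of day 3 and at 8.39, 8.40, 8.62 and 8.51 in vehicle. Every treated library lay above every vehicle library, and the rise was 0.68 ± 0.11 (log2 fold change ± SE, n = 4 per group, adjusted p = 1.86e-05), or 1.61-fold. At day 6 the treated values were 8.70, 8.76, 8.75 and 8.42 and those of vehicle 8.23, 8.21, 8.55 and 8.45, so the groups overlapped. The rise of 0.30 ± 0.11 (adjusted p = 0.0336) was lost without vehicle replicate 3 or 4 or corticosterone replicate 1, 3 or 5 of that day (0.25 to 0.29) and with the trend on transcript length removed (0.17). At day 9 the treated values were 8.40, 8.31, 8.24 and 8.33 against 8.74, 8.61, 8.76 and 8.36, again with an overlap. The difference of -0.29 ± 0.11 (adjusted p = 0.0582) did not pass the test, but did so under 6 of the alternatives, among them the removal of vehicle replicate 6 (-0.39 to -0.29).

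Mt2 had larger differences than Mt1 at days 3 and 9 and a smaller one, which did not pass the test, at day 6. At day 3 its treated libraries stood at 7.81, 8.49, 7.93 and 7.83 and those of vehicle at 7.06, 6.96, 7.23 and 7.12, a rise of 0.92 ± 0.11 (adjusted p = 1.4e-07). All 4 treated libraries were above vehicle, and replicate 4 was highest in both metallothionein genes. At day 6 the values were 7.51, 7.57, 7.62 and 7.19 with corticosterone and 7.14, 7.11, 7.46 and 7.28 in vehicle, which overlapped (0.22 ± 0.11, adjusted p = 0.107). Without the low treated replicate 6 the difference was 0.32 and passed the test. That was the highest of 21 alternatives, which ran down to 0.02 and of which 4 were called. At day 9 Mt2 was at 6.94, 6.92, 6.99 and 7.02 with corticosterone, below all of the vehicle values of 7.70, 7.52, 7.77 and 7.49, and had fallen by 0.65 ± 0.11 on the log2 scale (adjusted p = 7.7e-05). Both metallothionein genes were lowest at day 0 (means 7.67 for Mt1 and 6.72 for Mt2) and highest in treated cells at day 3. In both genes each of these 2 groups was apart from its neighbour in the order of means, and every pair of neighbours between them overlapped.

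The heavy chain gene of ferritin rose and the light chain gene did not pass the test. Fth1 stood at 11.94, 12.46, 11.95 and 11.92 log2 CPM in treated cells at day 3 and at 10.76, 10.80, 10.91 and 10.83 in vehicle, 4356 against 1815 CPM from the group means. It rose by 1.25 ± 0.09 (adjusted p = 7.1e-12), or 2.37-fold, and by 1.11 without replicate 4. At day 6, with the hormone removed, the treated values were 12.18, 12.20, 12.17 and 11.90 against 10.73, 10.77, 10.93 and 10.81 in vehicle, a rise of 1.30 ± 0.09 (adjusted p = 2.6e-12). The groups were again apart, and the change in effect between these days was 0.06 ± 0.12 (adjusted p = 0.843). At day 9 Fth1 was at 11.18, 11.14, 11.13 and 11.25 against 10.93, 10.94, 10.96 and 10.72, a rise of 0.29 ± 0.09 (adjusted p = 0.0144) that was 0.23 (adjusted p = 0.0628) without vehicle replicate 6 and 0.57 under quantile normalization. In the order of means, vehicle of days 3, 6 and 9 overlapped with each other, as did treated cells of days 3 and 6, and day 0 was lowest.

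Ftl1 had the smallest span of the 8 genes. Its treated libraries stood at 10.48, 10.98, 10.53 and 10.36 at day 3, around the vehicle values of 10.60, 10.62, 10.79 and 10.59. The difference was -0.07 ± 0.08 (adjusted p = 0.529), and without corticosterone replicate 4, the highest of them, it was -0.20 and passed the test (adjusted p = 0.00277). It also passed, in the same direction, with quantile normalization, library weights or the length trend removed (-0.24 to -0.18). Differences at days 6 and 9 were 0.09 ± 0.08 (adjusted p = 0.360) and 0.16 ± 0.08 (adjusted p = 0.150). At day 9 the treated range (10.31 to 10.34) lay above that of vehicle (10.04 to 10.23), and the difference passed with quantile normalization (0.31), library weights (0.14) or the compared groups alone (0.16). In the order of means, vehicle of days 9 and 6 and treated cells of days 6 and 9 overlapped as neighbours at the low end, and day 0, treated day 3 and vehicle day 3 did so at the high end.

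Taken within each library, where the scale of the library cancels, Fth1 moved away from Ftl1. A trend on transcript length that differs between libraries does not cancel, and with it removed all 9 pair differences described here kept their direction. The difference Fth1 minus Ftl1 was 1.49 ± 0.06 (mean ± SD, n = 4) log2 units in treated cells and 0.17 ± 0.05 in vehicle at day 3. It was 1.84 ± 0.12 against 0.63 ± 0.03 at day 6 and 0.85 ± 0.04 against 0.72 ± 0.03 at day 9. Treated libraries were above all vehicle libraries on each day, by 1.31, 1.21 and 0.13 (exact permutation test, two-sided, p = 0.0286, the smallest that 4 against 4 allows, and 0.0321 adjusted over 9 tests). Corticosterone day 3 replicate 4 did not stand apart on this measure, with the group between 1.43 and 1.56. In vehicle the same difference went from -0.27 ± 0.01 at day 0 to 0.72 ± 0.03 at day 9. These values are not corrected for length, so their sign does not say which subunit mRNA was more abundant.

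**Figure D3:**
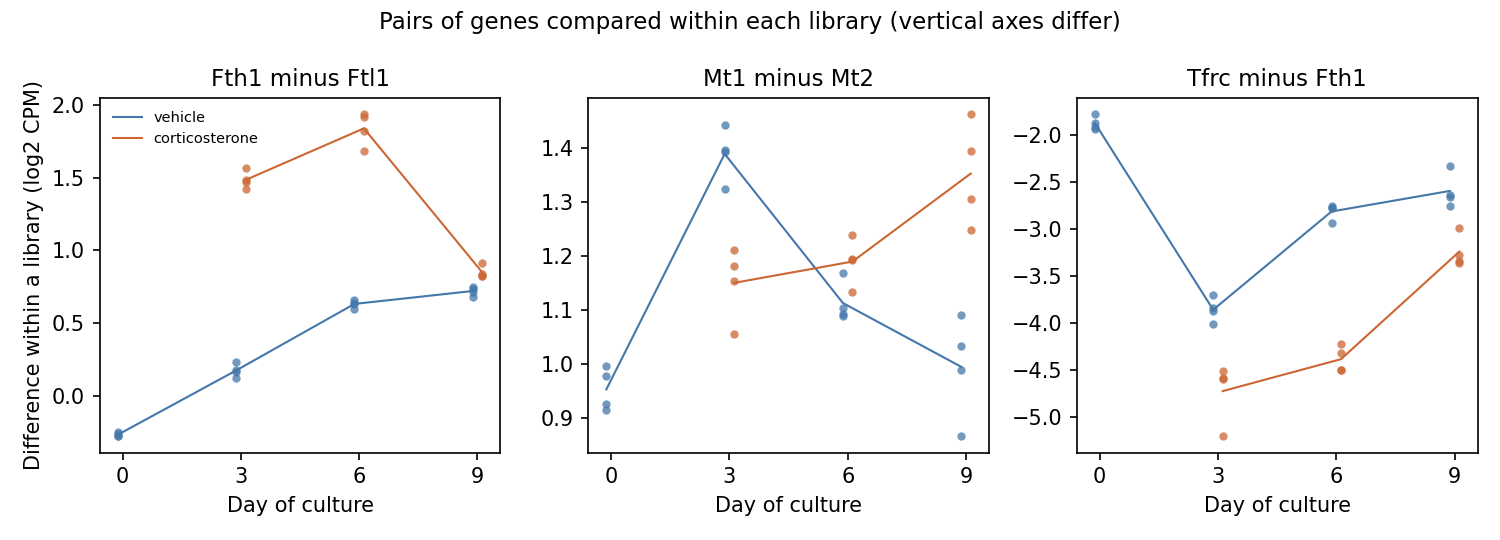
Difference in log2 CPM between 2 genes of the same library by day of culture, blue for vehicle and day 0 and orange for corticosterone, 1 point per library, with lines through the group means. Fth1 minus Ftl1 is 1.31 higher in treated cells at day 3 and 0.13 higher at day 9, and Tfrc minus Fth1 is lower in treated cells on all 3 days.

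The metallothionein genes differed from each other in the size of their change. Mt1 minus Mt2 was 1.15 ± 0.07 in treated cells and 1.39 ± 0.05 in vehicle at day 3 (difference -0.24, exact permutation p = 0.0286), 1.19 ± 0.04 against 1.11 ± 0.04 at day 6 (0.08, exact permutation p = 0.0571) and 1.35 ± 0.09 against 0.99 ± 0.10 at day 9 (0.36, exact permutation p = 0.0286). Adjusted over the same 9 tests these p-values were 0.0321, 0.0571 and 0.0321. With the trend on transcript length removed the differences at days 3 and 6 were -0.16 and 0.15 (exact permutation p = 0.0286 for both). Relative to Mt1, Mt2 was higher with corticosterone at day 3 and lower at day 9.

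Lcn2, a secreted lipocalin of the acute phase response that binds iron-loaded siderophores, had the largest rise of the 8. It was at 5.02, 5.33, 5.00 and 4.96 log2 CPM in treated cells at day 3 and at 0.14, 0.76, 1.00 and 0.86 in vehicle, that is 34.0 against 1.65 CPM from the group means. The rise was 4.39 ± 0.23 (adjusted p = 3.7e-14), or 20.9-fold, and was 2.55 on the log2(CPM + 5) scale, which damps low values. At day 6 the treated values were 5.69, 5.59, 5.61 and 4.48, with replicate 6 far below the others, against 2.55, 2.50, 2.84 and 2.57 in vehicle. That rise was 2.73 ± 0.23 (adjusted p = 2.8e-10), and the effect had changed by -1.66 ± 0.33 since day 3 (adjusted p = 0.00151, 0.0987 on the log2(CPM + 5) scale). The treated groups of days 3 and 6 overlapped, while vehicle rose from a mean of 0.69 to 2.62. At day 9 treated cells stood at 3.38, 3.34, 3.28 and 3.48, below the vehicle values of 4.08, 3.97, 4.11 and 3.98. This fall of 0.66 ± 0.23 on the log2 scale (adjusted p = 0.0356) ended as a call without any 1 of the 8 libraries (-0.70 to -0.63, adjusted p = 0.0513 to 0.0764), although the groups did not overlap. Untreated cells of day 0 were at -3.15, -3.33, -3.22 and -2.07, near the lowest value in the table, so a fold against them depends on the prior count.

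Steap4, a membrane reductase for iron and copper, was lower with corticosterone on each day. At day 3 it was at 1.20, 1.41, 1.59 and 1.11 log2 CPM in treated cells and at 3.03, 3.19, 2.91 and 3.24 in vehicle. It fell by 1.76 ± 0.15 on the log2 scale (adjusted p = 3.0e-10), 3.4-fold lower, and by 0.85 on the log2(CPM + 5) scale. At day 6 it was at 2.11, 2.45, 2.35 and 2.50 against 4.48, 4.64, 4.46 and 4.39, and had a log2 fold change of -2.14 ± 0.15 (adjusted p = 7.0e-12). At day 9 it was at 3.80, 3.92, 3.78 and 3.94 against 4.79, 5.07, 4.83 and 4.73, with a log2 fold change of -1.0 ± 0.15 (adjusted p = 1.6e-05). No treated library reached vehicle on any of these days. Steap4 rose over time in both arms, and its 7 group means were all apart, in the order day 0, corticosterone day 3 and 6, vehicle day 3, corticosterone day 9, vehicle day 6 and vehicle day 9.

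Of 6 genes used as macrophage markers, Csf1r and Cd68 were in the table and Ptprc, Adgre1, Lyz2 and Fcer1g were not. Their summed level was 9.59 to 10.7 CPM at day 0, 28.4 to 29.6, 49.1 to 57.6 and 87.6 to 108 CPM in vehicle at days 3, 6 and 9, and 7.88 to 11.3, 10.3 to 13.8 and 45.7 to 50.8 CPM with corticosterone. Most of it was Cd68, a lysosomal membrane protein gene, with log2 fold changes of -1.65 ± 0.10, -2.18 ± 0.10 and -1.07 ± 0.10 under corticosterone (adjusted p = 3.3e-13, 1.6e-15 and 6.5e-09), the direction of Steap4 on each day. Csf1r, a receptor gene, went the other way from Steap4 over time in vehicle. Its vehicle means went from 1.36 log2 CPM at day 0 to -0.68, -0.79 and -1.0 at days 3, 6 and 9, and its log2 fold changes under corticosterone were -1.71, -0.78 and 0.75 (adjusted p = 2.0e-05, 0.0280 and 0.0546). Of 5 fibroblast genes, Pdgfra, Col1a1 and Dcn were present, and their sum was 86.2 to 108 CPM with corticosterone and 20.7 to 24.8 CPM in vehicle at day 3. At day 6 it was 51.6 to 58.8 against 29.3 to 33.1 CPM and at day 9 it was 41.7 to 46.9 against 33.9 to 37.6 CPM, higher on each day, as was Fth1, whereas Lcn2 was lower at day 9. Most of the fibroblast sum was Dcn, with means of 6.48, 5.66 and 5.14 log2 CPM with corticosterone at days 3, 6 and 9. In vehicle the Dcn means were 3.72, 4.41 and 4.51. The sum therefore does not show that Pdgfra or Col1a1 rose. Of 4 endothelial genes, Pecam1 and Kdr were present. Their sum was 7.15 to 9.71 CPM with corticosterone and 1.43 to 2.60 CPM in vehicle at day 3. At day 6 it was 5.82 to 12.5 against 1.69 to 2.24 CPM, and at day 9 1.79 to 2.67 against 0.97 to 2.78 CPM, with an overlap. The part of the macrophage, fibroblast and endothelial genes in these results was not tested. In bulk RNA, fewer cells of a type and less RNA per cell cannot be told apart.

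Tfrc, whose protein brings in transferrin-bound iron, was called higher at day 3 and lower at day 6. It was at 7.35, 7.26, 7.45 and 7.34 log2 CPM with corticosterone and at 7.06, 6.96, 6.91 and 6.95 in vehicle at day 3, a rise of 0.38 ± 0.06 (adjusted p = 5.7e-06). At day 6 it was at 7.69, 7.70, 7.86 and 7.68 against 7.95, 7.99, 8.0 and 8.05, with a log2 fold change of -0.27 ± 0.06 (adjusted p = 0.000442). At day 9 it was at 7.82, 7.87, 8.14 and 7.92 against 8.28, 8.19, 8.32 and 8.39, with a log2 fold change of -0.36 ± 0.06 (adjusted p = 4.2e-05). The groups did not overlap on any of the 3 days, and the change from day 3 to day 6 was -0.65 ± 0.08 (adjusted p = 5.1e-06). Vehicle cells themselves fell from 8.31, 8.23, 8.26 and 8.28 at day 0 by 1.30 ± 0.06 on the log2 scale at day 3 and were back at 0.03 ± 0.06 from day 0 at day 9 (adjusted p = 0.659). Treated cells of day 3 were also below day 0, by -0.92 between the means. In the order of means, vehicle and treated cells of day 3 were lowest and apart, treated days 6 and 9 and vehicle day 6 overlapped as neighbours, and day 0 and vehicle day 9 overlapped at the top.

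Against Fth1 within each library, Tfrc was lower with corticosterone throughout. Tfrc minus Fth1 was -4.72 ± 0.32 in treated cells and -3.86 ± 0.12 in vehicle at day 3, -4.38 ± 0.14 against -2.81 ± 0.08 at day 6, and -3.24 ± 0.17 against -2.59 ± 0.19 at day 9. Every treated library was below every vehicle library, by -0.87, -1.57 and -0.65 in the means (exact permutation p = 0.0286 each, 0.0321 adjusted over 9 tests). At day 9 the difference was -0.56 and not called without vehicle replicate 6 (exact permutation p = 0.0571).

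Slc39a14 (ZIP14), which imports zinc and iron not bound to transferrin, was higher with corticosterone on all 3 days. It was at 8.11, 7.65, 7.99 and 8.29 log2 CPM with corticosterone and 6.59, 6.56, 6.80 and 6.56 in vehicle at day 3, a rise of 1.38 ± 0.11 (adjusted p = 1.1e-10), or 2.61-fold. Replicate 4, highest for the metallothioneins and ferritin, was the lowest treated library here. At day 6 it was at 8.71, 8.67, 8.46 and 8.11 against 6.90, 6.92, 6.91 and 7.01, a rise of 1.55 ± 0.11 (adjusted p = 1.1e-11). At day 9 it was at 7.34, 7.35, 7.17 and 7.25 against 6.71, 6.73, 6.88 and 6.5, a rise of 0.57 ± 0.11 (adjusted p = 0.000346). Treated libraries were above all vehicle libraries on each day, and the 3 treated groups were the 3 highest means, with vehicle of day 3 and of day 9 the lowest and overlapping.

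Each of the 2 libraries that stood apart was also left out. Without corticosterone day 3 replicate 4, the day 3 rises were 0.53 for Mt1, 0.77 for Mt2, 1.11 for Fth1, 4.30 for Lcn2, 0.41 for Tfrc and 1.5 for Slc39a14, and Steap4 was at -1.79. Without corticosterone day 6 replicate 6, the day 6 rises were 0.38 for Mt1, 1.38 for Fth1, 3.01 for Lcn2 and 1.68 for Slc39a14. Steap4 was then at -2.19 and Tfrc at -0.25. In both cases every member kept its direction, and the calls that changed were those of Ftl1 at day 3 and Mt2 at day 6, given above.

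The change in the corticosterone effect was tested directly. From day 3 to day 6 it declined for Mt2 (-0.70 ± 0.16, adjusted p = 0.00462), Lcn2 and Tfrc, and 0 members went up, where 9.11% of all genes were called, 4.21% higher and 4.9% lower. Mt1, Fth1, Ftl1, Steap4 and Slc39a14 were not called there. Without the 2 libraries that stood apart, Mt2 was at -0.45 (adjusted p = 0.0061), and Fth1 (0.26) and Ftl1 (0.31) were called as well, in the other direction. From day 6 to day 9 it went down for Mt1 (-0.59 ± 0.16), Mt2 (-0.87 ± 0.16), Fth1 (-1.01 ± 0.12), Lcn2 (-3.39 ± 0.33) and Slc39a14 (-0.98 ± 0.16) and up for Steap4 (1.14 ± 0.21), with adjusted p from 1.5e-08 to 0.00628, where 30.9% of all genes were called, 16% higher and 14.9% lower. Ftl1 and Tfrc were not called (0.07 and -0.09). The change from day 6 to day 9 was -0.42 for Fth1 under quantile normalization and 0.64 for Steap4 on the log2(CPM + 5) scale, and both were still called. These 2 tests share the libraries of day 6.

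Most members differed between day 0 and the later vehicle groups, as did most genes. Against day 0, 6 members rose and 2 fell in vehicle at day 3 (69.2% of all genes called, 36.5% higher and 32.7% lower). At day 6, 5 rose and 2 fell (70.1% called, 36.4% higher and 33.7% lower), and at day 9, 5 rose and 2 fell (70.4% called, 35.9% higher and 34.6% lower). These comparisons share the day 0 libraries, which had no ethanol, so ethanol and time cannot be told apart. Mt1 was higher by 0.81 ± 0.11, 0.69 ± 0.11 and 0.94 ± 0.11, Mt2 by 0.37 ± 0.11, 0.53 ± 0.11 and 0.90 ± 0.11 and Fth1 by 0.69 ± 0.09, 0.67 ± 0.09 and 0.75 ± 0.09. At days 3 and 6 the rise of Mt2 was 0.62 and 0.84 with the length trend removed, and that of Fth1 was 1.31 and 1.01 under quantile normalization. Tfrc was lower at day 6 (-0.27), a call that ended under quantile normalization (-0.03, adjusted p = 0.603). Ftl1 rose by 0.25 ± 0.08 at day 3 (0.41 with the length trend removed, 0.76 under quantile normalization) and was lower at days 6 and 9 (-0.23 and -0.24), calls that ended with the length trend removed (-0.02 and -0.08). Under quantile normalization day 6 was reversed (0.18) and day 9 not called (-0.04). Slc39a14 was lower at day 3 (-0.41 ± 0.11) and day 9 (-0.33 ± 0.11, and -0.27 with adjusted p = 0.0504 without vehicle replicate 6) and not called at day 6 (-0.10). Lcn2 and Steap4 started near the lowest values and rose by 3.63 and 4.83 at day 3, and the size of this rise depended on the scale (1.21 and 2.87 with log2(CPM + 1), 0.37 and 1.35 with log2(CPM + 5)), with adjusted p at most 0.0178. At day 9 Lcn2 reached a mean of 4.03 and Steap4 of 4.86 log2 CPM.

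Among 11688 genes with a mean of at least 1 log2 CPM, the genes whose level over the 28 libraries was most like a member's are given as a description, with Pearson's r over libraries that share groups of 4. Mt1 was closest to Tsc22d4 (0.948), Dguok (0.946) and Ndufv3 (0.945), and Mt2 to Gm45551 (0.935), Ccnl2 (0.934) and Mt1 (0.931). Fth1 was closest to Gstm2 (0.985), Tmem176b (0.983) and Trim67 (0.981), whereas its r with Ftl1 was 0.175. Ftl1 was closest to its copy Ftl1-ps1 (0.929), then Cnot8 (0.885) and Pir (0.880). Lcn2 lay closest to Ugt1a6a (0.983), Mamld1 (0.979) and Ndrg1 (0.979), and Steap4 to Gstt1 (0.974), Gas1 (0.973) and Ifit1 (0.972). Tfrc lay closest to Cnn3 (0.934), Lmo4 (0.931) and Ppp1r15b (0.920), and Slc39a14 to Zfp697 (0.969), Akap12 (0.966) and Plpp3 (0.961). Within groups, deviations from the group mean of Mt1, Mt2 and Ftl1 went with those of Fth1 (r = 0.940, 0.919 and 0.901 over 28 libraries, and 0.884, 0.834 and 0.747 without corticosterone day 3 replicate 4). Without that library, r with Fth1 was also 0.67 for Lcn2 and 0.65 for Slc39a14, with 0.01 for Steap4 and -0.17 for Tfrc. Over 28 libraries, deviations of Mt1, Mt2, Fth1 and Ftl1 also went with the library's slope on transcript length (r = -0.70, -0.74, -0.73 and -0.85). Without that library these r were -0.18, -0.25, -0.13 and -0.32.

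Other genes of zinc handling went both ways. For the counts of this and the other lists, the shares over all genes were 23.3% higher and 25.6% lower at day 3, 22.9% and 24.3% at day 6, and 14.1% and 14.4% at day 9. Of the 16 zinc genes other than the members, 4 rose, 5 fell and 7 were not called at day 3 (median -0.07), 3 rose and 5 fell at day 6 (0.02) and 1 rose and 3 fell at day 9 (0.07). Mtf1, the metal-responsive factor itself, was at -0.04, 0.06 and 0.09 and not called. The zinc exporter gene Slc30a1 was higher by 0.42 at day 6, Slc30a4 was at -0.65 at day 6, and the importer gene Slc39a1 was at -0.59 and -0.58 at days 3 and 6. Slc39a11 fell by 0.65 on the log2 scale at day 3 and was 0.30 higher at day 9, and Slc39a13 was at -0.48 at day 9. Slc39a8, the closest relative of Slc39a14 and also an importer of zinc and iron, was at -0.49 ± 0.08 at day 3 and -0.47 ± 0.08 at day 6 (adjusted p = 8.9e-06 and 1.2e-05), where Slc39a14 was higher. At day 9, where Slc39a14 was also higher, it was at 0.14 ± 0.08 and not called (adjusted p = 0.186). It was named after its values were seen.

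Of 10 copper genes other than the metallothioneins, 5 rose and 0 fell at day 3 (median 0.35, and 0.23 with the same counts without corticosterone day 3 replicate 4), where 23.3% of all genes rose and 25.6% fell. At day 6, 5 rose and 0 fell (0.39), and 3 rose and 1 fell at day 9 (0.14). The gene that fell was Atp7b (-1.61), named after its values were seen. Its group mean was above 0 log2 CPM only in vehicle at day 9 (0.29). It met the filter of at least 4 libraries above 0 only through that group, so its fall followed from the filter. Slc31a2, a copper transporter gene, rose by 1.71 ± 0.11 at day 3 and 1.32 ± 0.11 at day 6, with 0.06 at day 9. Sco2, a copper chaperone gene for cytochrome oxidase, rose by 1.09 at day 6 and 0.83 at day 9, and Sco1 by 0.31 at day 9. The principal importer gene Slc31a1 was not called (-0.02, 0.06 and 0.05).

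In iron storage and release, the exporter gene Slc40a1 (ferroportin) was lower with corticosterone at days 3 and 6. Its means were 5.34 ± 0.40 log2 CPM (SD, n = 4) with corticosterone and 6.70 ± 0.16 in vehicle at day 3, and 4.58 ± 0.30 and 6.11 ± 0.12 at day 6, log2 fold changes of -1.36 ± 0.18 and -1.53 ± 0.18 (adjusted p = 6.6e-07 and 9.1e-08). At day 9 its value was -0.20 ± 0.18 (adjusted p = 0.452). Of the 6 genes of this list besides ferritin, 1 rose and 2 fell at day 3 (median -0.05), 1 rose and 1 fell at day 6 (-0.06), and 2 rose and 1 fell at day 9 (0.05). The ferroxidase gene Cp was 0.53 higher at day 3 and at -0.48 at day 9, and Heph, another ferroxidase gene, was at -0.21 at day 3 and 0.21 higher at day 9. Ncoa4, the receptor that delivers ferritin to lysosomes, was higher by 0.20 at day 6, and the iron chaperone gene Pcbp1 by 0.25 at day 9.

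Among 9 other genes of iron uptake and reduction, 1 rose and 5 fell at day 3 (median -0.42), 3 rose and 3 fell at day 6 (-0.17), and 1 rose and 2 fell at day 9 (0.09). Steap3, the endosomal reductase that works beside the transferrin receptor, had log2 fold changes of -1.11 ± 0.06, -1.56 ± 0.06 and -0.46 ± 0.06 at the 3 days (adjusted p = 2.5e-14, 4.2e-17 and 1.2e-06), the direction of Steap4. Steap1 was at -0.52 at day 3 and 0.47 higher at days 6 and 9, all called. Of 8 genes of iron sensing, 2 rose and 0 fell on each day (medians 0.08, 0.07 and 0.15). The iron regulatory protein gene Aco1 was higher by 0.30 at day 6 and 0.27 at day 9, Ireb2, the gene of the second such protein, was not called (-0.15, 0.01 and 0.04), and Fbxl5, which removes that protein, was higher by 0.13 at day 3. The remaining riser was Epas1, an oxygen-sensing transcription factor gene, at 2.61, 3.96 and 1.96. Its mean was below 1 log2 CPM, and it was named after its values were seen. Group means of Epas1 were above 0 log2 CPM only with corticosterone at days 3 and 6 (1.05 and 1.44). It met the filter of at least 4 libraries above 0 only through these groups. Its rise on those days therefore followed from the filter and gives no support to the counts of this list.

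**Figure D4:**
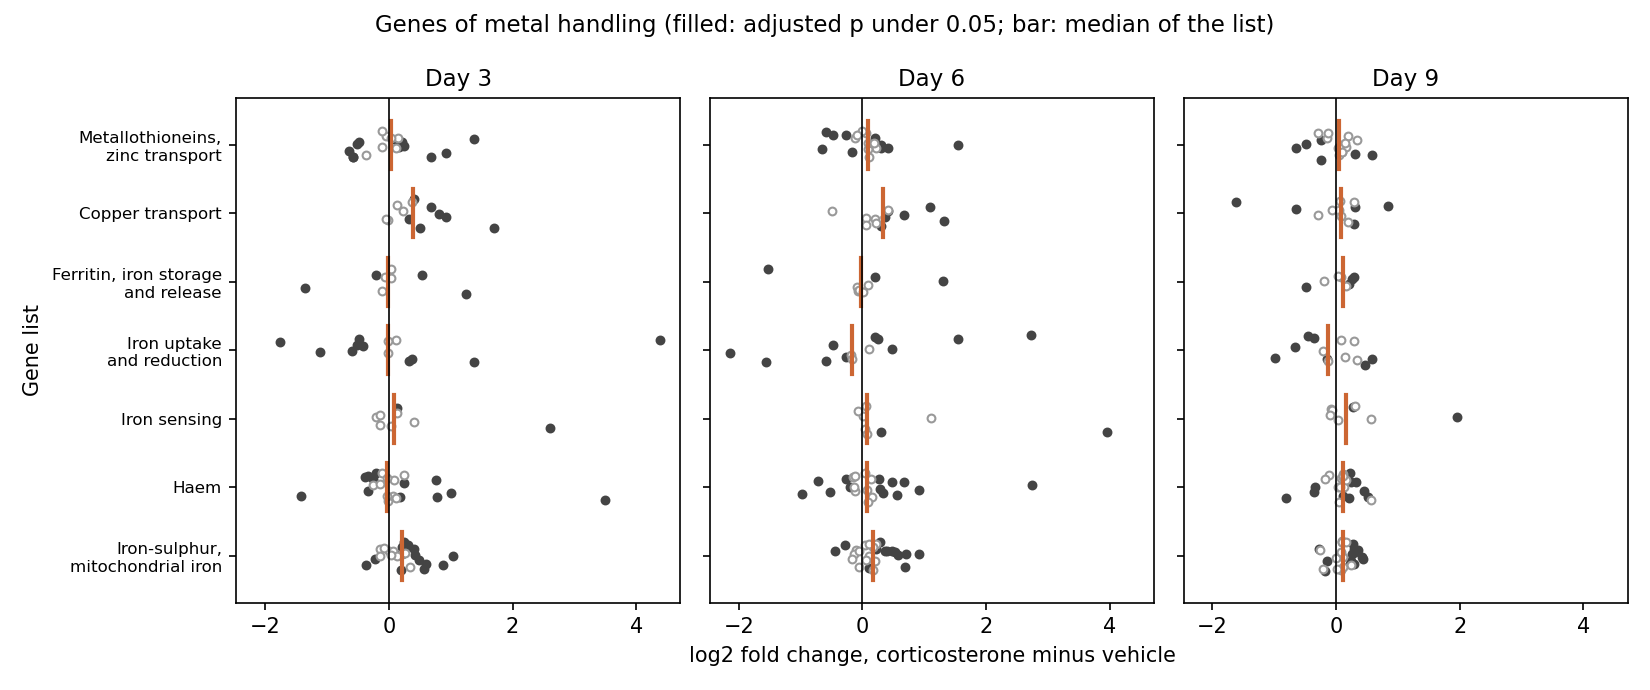
Log2 fold change of corticosterone against vehicle for every measured gene of 7 lists of metal handling at days 3, 6 and 9 (members included, 1 point per gene, filled where adjusted p was under 0.05), with the median of each list as an orange bar. Copper transport has medians of 0.39, 0.33 and 0.07, and most other medians lie near 0. The points farthest out in uptake, sensing and haem at day 3 are Lcn2 (4.39), Epas1 (2.61) and Flvcr2 (3.5).

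Haem genes were split. Of 22, 6 rose and 6 fell at day 3, 8 rose and 5 fell at day 6, and 7 rose and 3 fell at day 9 (medians -0.03, 0.08 and 0.11). Without corticosterone day 3 replicate 4, 5 rose and 7 fell at day 3 (median -0.06). Alas1, the first and rate-limiting enzyme of the pathway, rose by 0.78 ± 0.09, 0.91 ± 0.09 and 0.51 ± 0.09 at days 3, 6 and 9. Cpox, a later enzyme, was at -1.42 ± 0.06 and -0.98 ± 0.06 at days 3 and 6 and 0.32 higher at day 9, and Ppox, which follows it, was at -0.38, -0.71 and -0.36. Hpx, which binds free haem, was 1.01 higher at day 3, the haem exporter gene Abcg2 0.45 higher at day 9, and haem oxygenase Hmox1 was at -0.81 at day 9. Flvcr2 was 3.5 and 2.74 higher at days 3 and 6, from a mean near -1.51 and -2.07 log2 CPM in vehicle, and was named after its values were seen.

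Of 26 genes of iron-sulphur cluster assembly and mitochondrial iron, 14 rose and 2 fell at day 3 (median 0.21), where 23.3% of all genes rose and 25.6% fell. At day 6, 11 rose and 2 fell (0.17, with 22.9% and 24.3% of all genes), and at day 9, 10 rose and 3 fell (0.11, with 14.1% and 14.4%). Without corticosterone day 3 replicate 4, 10 rose and 5 fell at day 3 (median 0.13). The scaffold gene Iscu rose by 1.04 ± 0.09 and 0.92 ± 0.09 at days 3 and 6, Cisd1 by 0.88 at day 3 and the ferredoxin gene Fdx1 by 0.70 at day 6. Iba57, which acts late in cluster assembly, was 0.43 higher at day 9. Nubp1, of the cytosolic pathway, was at -0.37 and -0.45 at days 3 and 6, the mitochondrial iron importer gene Slc25a37 at -0.22, -0.29 and -0.28, and its relative Slc25a28 at -0.18 at day 9.

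Acute phase and cytokine genes, which often accompany Lcn2 and Steap4, were mixed at days 3 and 6. Of 12, 5 rose and 2 fell at day 3 (median -0.03), 4 rose and 3 fell at day 6 (0.06), and 0 rose and 4 fell at day 9 (-0.17). Without corticosterone day 3 replicate 4 the day 3 median was 0.06, with 5 rising and 3 falling. Cebpd, a transcription factor gene of this response, rose by 2.06 ± 0.15 and 1.15 ± 0.15 and was at -0.45 ± 0.15 at day 9 (adjusted p = 0.0236). Complement gene C3 was 1.54 higher at day 3 and the receptor gene Il6st 0.76 higher at day 6. Receptor gene Il1r1 was at -0.95 and -0.73 at days 3 and 6, Il17ra at -0.22 at day 3, and Lbp at -0.97 and -0.78 at days 6 and 9.

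Targets of NRF2, the oxidative stress factor that also drives ferritin genes, went in both directions: of 12, 3 rose and 5 fell at day 3 (median -0.11), 4 rose and 5 fell at day 6 (-0.04), and 3 rose and 2 fell at day 9 (0.08). Gclc, for glutathione synthesis, rose by 1.46 ± 0.06 at day 3 and 1.41 ± 0.06 at day 6 and stood at 0 at day 9. Nqo1 was at -0.55 and -0.62 and then 0.38 higher, and Txnrd1 was at -0.67 at day 3. Slc7a11 was 0.42 higher at day 3, Gclm 0.34 higher at day 6 and Srxn1 0.29 higher at day 9, and the NRF2 repressor gene Keap1 was at -0.39 and -0.33 at days 6 and 9. Nfe2l2, which encodes NRF2, was not called (0.09, 0.04 and -0.04).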

How the data were processed

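The deposited values are the authors' normalized log2 CPM in 28 libraries. The submitters' processing notes name kallisto, edgeR 3.40.1, limma 3.54.0 and the build mm10. Normalization, prior count and annotation are not given in the sources used here. Counts were not used here, so depth is unknown and its limit on low genes cannot be given. Only 2.85 to 19.9% of low values fell on whole-read steps (tolerance 0.02), so no count model was fitted. CPM summed to 949631 to 1059930 per library. An entry without a symbol (0.0267 to 0.0698% of CPM) was left out. The smallest root mean square difference between libraries was 0.282, so none was a copy.

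Requiring at least 4 libraries above 0 log2 CPM removed 0 genes. limma 3.58.1 in R 4.3.3 fitted 1 mean per group to 28 libraries (21 residual degrees of freedom, intensity trend), with Benjamini-Hochberg adjustment over 13128 genes and a threshold of 0.05. Differences between members within a library used exact permutation. The script was tested on simulated data. Promoters and hairpins came from RefSeq and GENCODE M21, and 7 of 8 members had a promoter entry. Named genes were the 8 members, up to the 2 largest rises and 2 largest falls per list and day with a mean of at least 1 log2 CPM, and the 3 genes most like each member. Values of some genes that this rule names are not reported here. The members and lists were chosen with earlier results of these data known. Alternatives were other filters, scalings, offsets, fits, weights, a replicate block and single libraries left out.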

Additional observations from a re-analysis of the deposited data

Results flagged for a closer look

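Single libraries lay far from the other 3 of their group (gap over range above Dixon's critical value) in 13 of 77 checks. These covered the 8 genes and 3 pair differences in each of the 7 groups. Chance gives about 1 in 20 for independent checks. These were not independent, since 1 odd library can count in several. Corticosterone day 3 replicate 4 was high for Mt1 (9.64 log2 CPM) and Fth1 (12.46) and low for Tfrc minus Fth1 (-5.20). Corticosterone day 6 replicate 6 was low for Lcn2 (4.48) and Fth1 (11.90), and in replicate 5 of that group Tfrc was high (7.86). Vehicle replicate 5 was high for Ftl1 at day 3 (10.79) and day 6 (10.29) and for Slc39a14 at day 3 (6.80), and low for Tfrc minus Fth1 at day 6 (-2.93). Fth1 was low in vehicle day 9 replicate 6 (10.72), Lcn2 high in day 0 replicate 6 (-2.07) and Fth1 minus Ftl1 high in corticosterone day 9 replicate 6 (0.91).

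The corticosterone effect differed between days 3 and 6 for Mt2 (-0.70), Lcn2 (-1.66) and Tfrc (-0.65). Between days 6 and 9 it differed for Mt1 (-0.59), Mt2 (-0.87), Fth1 (-1.01), Lcn2 (-3.39), Steap4 (1.14) and Slc39a14 (-0.98). Each is the later effect minus the earlier one, tested as an interaction in limma.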

How the results depend on the processing

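Of 800 values of the 64 member results under other settings, 765 kept their direction and side of the threshold, 7 lost the call, 25 gained one and 3 reversed. With single libraries left out, 618 of 640 kept both, 15 lost the call, 5 gained one and 2 reversed. Of 450 values of the 25 counts and pair differences, 445 stayed, a count within 1.5 times and a pair difference with its direction and side of the threshold. For the change in effect from day 3 to day 6, 766 genes were called with only the groups compared against 1196, and 5 members with library weights and 5 without the 2 libraries that stood apart, a choice made after seeing the data, against 3. With the length trend removed, Mt1 minus Mt2 at day 6 was 0.15 (exact permutation p = 0.0286). Reversed values were Ftl1 in vehicle at day 6 under quantile normalization (0.18), Ftl1 at day 6 (-0.00121) and Tfrc in vehicle at day 9 (-0.00638) with the length trend removed, Tfrc in vehicle at day 9 without vehicle replicate 6 (-0.00269, the lowest, up to 0.0656 with other libraries left out) and Ftl1 at day 3 without corticosterone replicate 6 (0.0096, the highest, down to -0.20 without replicate 4); the cause was not tested.

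Deviations of same-numbered libraries had r from -0.03 to 0.17 (10 pairs, 9 above 0 and 4 above 0.1), and other pairs -0.25 to 0.24. Since 6 pairs were not above 0.1, the numbers were not taken to pair samples, although the 3 pairs of day 6 all were (0.11 to 0.16), where the replicate block changed no call of a member. With the replicate block, the call of Lcn2 at day 9 was lost (adjusted p = 0.0501). With single libraries left out, the 9 pair differences kept their calls except Tfrc minus Fth1 at day 9 (-0.73 to -0.56), which was not called without vehicle replicate 6 (exact permutation p = 0.0571). Low values of Lcn2 and Steap4 at day 0 limit the size of their changes.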
